A study of Mus musculus with 8 samples.

Results

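The immediate early response genes described here are Fos, Fosb, Jun, Junb, Egr1, Atf3, Ier2, Ier3, Dusp1 and Zfp36, followed in the colon of adult mice that lack STAT5b and of wild type mice. They were taken as a list by name, and a gene entered through any probe set whose RefSeq accession maps to it. All 10 had a probe set, 1 each, among 14351 genes that could be named. RNA from 7 samples was measured on Affymetrix arrays, on which groups of short DNA probes (probe sets) read single transcripts. The groups are 3 arrays of genotype STAT5b-/-, 3 arrays titled WT and 1 sample titled REF, which carries the wild type genotype too and was deposited as 2 columns that differ by at most 2.47e-07 of their value. STAT5b-/- replicate 1 came from a male and all other samples from females. The labels give no strain, no treatment, no age beyond adult, no meaning for REF, no batch and no account of how Stat5b was disrupted. Nor do they state that replicates are different mice, and only the sex of STAT5b-/- replicate 1 sets it apart from the others. A p-value here may therefore reflect technical spread in large part.

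Immediate early genes are switched on within minutes of a growth factor, cytokine, microbial or mechanical stimulus, from transcription factors already present in the cell and without new protein synthesis. The ERK and stress-activated kinases drive most of them through serum response factor with its ternary complex partners and through CREB. Fos and Jun proteins pair to form AP-1, which binds DNA as a dimer, while Dusp1 and Zfp36 encode brakes that remove kinase phosphates and inflammatory mRNAs. In the gut the genes respond to feeding, injury and the handling of tissue during dissection, and their mRNAs are short-lived.

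Values are expressed relative to the WT arrays, each probe set having been divided by its average over those 3 arrays. Such ratios carry no level of one gene against another, so it cannot be read from them which of the genes is abundant in colon or whether a marker is absent. Array medians of the ratio lay between 0.968 and 0.988 in STAT5b-/-, between 0.960 and 1.04 in WT, and at 0.948 in REF. The targeted gene was looked at first: Stat5b had ratios of 1.16, 1.17 and 1.26 in the STAT5b-/- arrays, against 1.08, 0.930 and 0.993 in the WT arrays and 1.18 in REF (limma adjusted p = 0.175 for STAT5b-/- against WT). Its probe set does not check the labels, since the deleted part of the gene is not given, and every direction below rests on the labels. The arrays measure whole colon RNA, in which a change in the number of cells of a type and a change in RNA per cell cannot be told apart.

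Of the 10 genes, 6 were higher in STAT5b-/- colon and 0 were lower (limma adjusted p under 0.05). They were Atf3 (4.32-fold), Junb (2.79-fold), Zfp36 (2.48-fold), Jun (2.03-fold), Ier2 (1.83-fold) and Dusp1 (1.55-fold). Over all 14351 genes, 13.3% were called higher and 8.42% lower. Fosb, Fos, Egr1 and Ier3 did not pass, and the WT arrays differed in them by up to 11.1-fold. The median log2 fold change of the 10 genes was 0.95, beside 0.007 over all genes. Atf3, Junb and Jun passed whichever array was left out, whereas Ier2 and Dusp1 passed in 1 of those 6 fits each and Zfp36 in 5. With the arrays quantile normalized, 0 of the 10 passed.

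**Figure D1:**
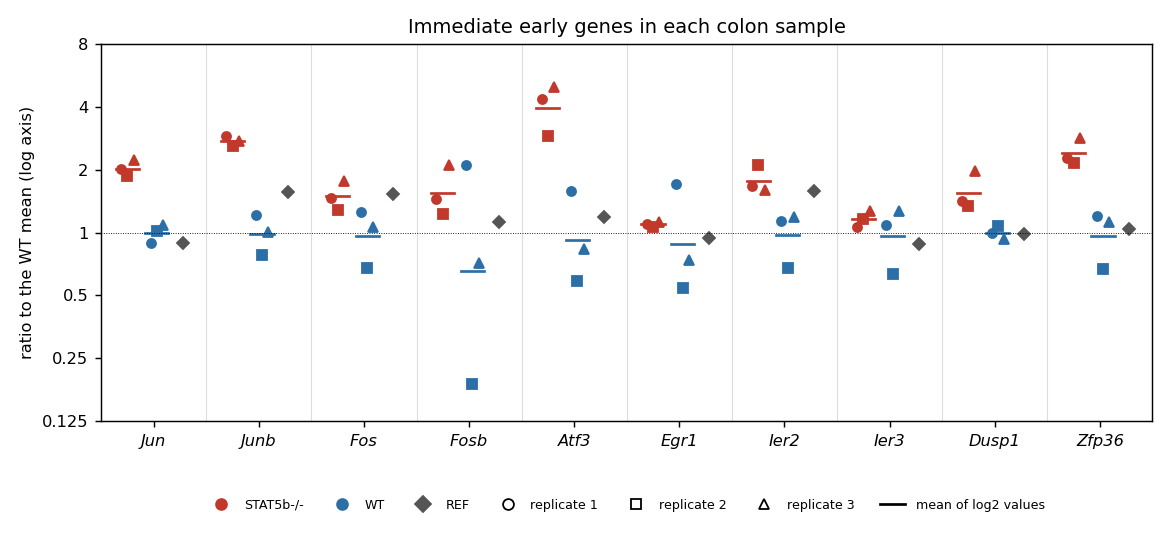
Ratio to the WT mean of each immediate early gene (log axis) in STAT5b-/- (red), WT (blue) and REF (grey), with marker shapes for the replicate numbers and bars for the mean of the log2 values. Atf3, Jun, Junb, Zfp36, Ier2 and Dusp1 have all STAT5b-/- points above all WT points and REF, while for Fosb and Egr1 the WT points span 0.189 to 2.10 and 0.543 to 1.72.

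The DNA ahead of the transcription start is printed for 5 of the genes that rose and for Fos, since serum response, cAMP response and AP-1 elements in this stretch are the textbook inputs of the family. The sequences are from RefSeq (GRCm38.p6) and cover the 250 bases before the annotated start, 5′ to 3′ on the gene's strand. Capitals mark matches, on either strand, to the cAMP response element TGACGTCA and its core TGACG, the AP-1 site TGANTCA, the CArG box of serum response factor, the EGR site GCGNGGGCG, the TATA box TATAAA, the CCAAT box, the STAT5 site TTCNNNGAA and the kappaB site. They lie on the minus strand at chr4:95052223-95052472 for Jun, chr8:84978749-84978998 for Junb, chr1:191183334-191183583 for Atf3, chr17:26508473-26508722 for Dusp1 and chr7:28379229-28379478 for Zfp36, and on the plus strand at chr12:85473640-85473889 for Fos.
Jun: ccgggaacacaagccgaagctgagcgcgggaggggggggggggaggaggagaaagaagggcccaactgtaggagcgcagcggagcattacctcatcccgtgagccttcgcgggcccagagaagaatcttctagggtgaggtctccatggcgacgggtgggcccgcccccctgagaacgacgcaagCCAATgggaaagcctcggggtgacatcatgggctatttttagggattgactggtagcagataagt
Junb: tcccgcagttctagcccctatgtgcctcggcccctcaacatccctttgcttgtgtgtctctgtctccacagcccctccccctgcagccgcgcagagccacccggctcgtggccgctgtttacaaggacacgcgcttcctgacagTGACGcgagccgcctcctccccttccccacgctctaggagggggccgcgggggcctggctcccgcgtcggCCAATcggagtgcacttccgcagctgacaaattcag
Fos: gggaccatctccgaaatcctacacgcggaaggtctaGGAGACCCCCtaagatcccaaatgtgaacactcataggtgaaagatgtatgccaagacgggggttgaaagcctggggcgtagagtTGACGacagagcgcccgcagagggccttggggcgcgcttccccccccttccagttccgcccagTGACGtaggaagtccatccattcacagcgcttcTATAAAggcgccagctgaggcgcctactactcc
Atf3: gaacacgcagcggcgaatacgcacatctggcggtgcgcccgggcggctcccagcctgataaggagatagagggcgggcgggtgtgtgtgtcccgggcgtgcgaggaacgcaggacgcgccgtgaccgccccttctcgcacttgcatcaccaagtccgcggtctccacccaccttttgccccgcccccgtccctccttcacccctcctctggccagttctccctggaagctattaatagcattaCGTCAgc
Dusp1: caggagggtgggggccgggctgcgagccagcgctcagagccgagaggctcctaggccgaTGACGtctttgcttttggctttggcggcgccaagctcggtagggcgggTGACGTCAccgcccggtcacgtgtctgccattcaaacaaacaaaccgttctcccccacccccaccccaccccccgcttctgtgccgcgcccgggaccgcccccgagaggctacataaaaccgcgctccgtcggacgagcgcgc
Zfp36: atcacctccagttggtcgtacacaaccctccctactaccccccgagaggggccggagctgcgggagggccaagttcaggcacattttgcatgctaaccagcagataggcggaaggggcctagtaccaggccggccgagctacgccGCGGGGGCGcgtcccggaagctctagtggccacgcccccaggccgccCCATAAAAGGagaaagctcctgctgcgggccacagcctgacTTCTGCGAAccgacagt

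The promoters share no single element. Dusp1 holds the full cAMP response element, 143 bases before the start, with a further core element at 191. Fos has core elements at 129 and 66 bases, a TATA box at 33 bases and a kappaB match at 214 bases before the start. Zfp36 carries an EGR site at 105 bases, a CArG box at 58 and a STAT5 match at 17. Junb has a core element at 106 bases and a CCAAT box at 36, Jun a CCAAT box at 65, and Atf3 a core element at 7 bases before the start, read on the opposite strand.

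Windows of 300 bases (250 before and 50 after the start) were read for 8 of the 10 genes, without Egr1 and Ier2. Windows on chromosome 18, where Egr1 lies, were not taken for the 10 genes. The full cAMP response element was in 1 of these 8 and in 1.79% of 32817 such windows of the mouse genome. Its core, which every full element also holds, was in 5 of 8, against 20.8% of all windows. The CArG box was in 1 of 8 (1.63% of all windows), the EGR site in 2 (5.56%), the TATA box in 2 (13.6%) and the CCAAT box in 4 (37.4%). Of these, the TATA match of Junb and the CCAAT match of Atf3 begin at bases 1 and 6 of the 50 after the start. The kappaB site was in 3 (4.5%), namely Fos, Fosb and Ier3, none of which was called higher. The STAT5 match of Zfp36 was the only one among the 8, and 8.29% of all windows hold one. None of the 8 held the AP-1 site as spelled TGANTCA, which was in 7.81% of all windows. Exact patterns miss near matches: the printed Jun sequence holds TGACATCA, 1 letter from the full cAMP response element. The letters of a match show neither that a factor binds nor that it acts in colon, and the known serum response element of Fos lies upstream of its window.

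Jun and Junb encode the Jun side of AP-1. Jun is the strong activator, a target of the JNK kinases, and Junb often tempers it. Jun had ratios of 2.02, 1.86 and 2.22 in STAT5b-/- colon, against 0.895, 1.02 and 1.09 in WT and 0.897 in REF. It was among the tightest of the genes within each group, and its lowest STAT5b-/- array was 1.71-fold above the highest wild type sample. The log2 fold change was 1.02 ± 0.14 (SE, n = 3 arrays a group; limma adjusted p = 0.00328). Junb had ratios of 2.90, 2.61 and 2.73 in STAT5b-/-, against 1.22, 0.777 and 1.00 in WT and 1.57 in REF. REF thus lay above all WT arrays but below all STAT5b-/- arrays, by 1.66-fold from the nearest. Junb rose by 1.48 ± 0.18 on the log2 scale (limma adjusted p = 0.00251), and by 1.31 ± 0.23 when WT and REF were taken as 4 wild type samples (adjusted p = 0.00485).

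Fos and Fosb encode the Fos side of AP-1, which cannot pair with itself and needs a Jun partner. Fos had ratios of 1.46, 1.29 and 1.77 in STAT5b-/- colon, against 1.26, 0.679 and 1.06 in WT and 1.53 in REF. The STAT5b-/- arrays lay above the WT arrays by a margin of only 1.02-fold, and REF lay above 2 of them. The log2 fold change of 0.63 ± 0.25 did not pass (adjusted p = 0.128), with a 95% interval of 0.03 to 1.22. Fosb had ratios of 1.45, 1.22 and 2.11 in STAT5b-/-, against 2.10, 0.189 and 0.714 in WT and 1.12 in REF. Here the groups overlap, as WT replicate 1 matched the highest STAT5b-/- array and WT replicate 2 was 11.1-fold below WT replicate 1. Its log2 fold change was 1.24 ± 0.80 (adjusted p = 0.329), between 0.34 without WT replicate 2 and 2.08 without WT replicate 1, so that single WT arrays set its size.

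Atf3, a stress-induced factor of the ATF family that pairs with Jun proteins and often represses, had the largest fold change of the 10 genes. Its ratios were 4.34, 2.90 and 4.97 in STAT5b-/- colon, against 1.58, 0.589 and 0.833 in WT and 1.19 in REF. Although the WT arrays differed by 2.68-fold, the lowest STAT5b-/- array was still 1.84-fold above the highest of them. The log2 fold change of 2.11 ± 0.38 (adjusted p = 0.00974) lay above that of 99.2% of all genes.

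Egr1, a zinc finger factor that is among the most rapidly induced genes of the class, did not differ beyond the spread. It had ratios of 1.10, 1.06 and 1.13 in STAT5b-/-, against 1.72, 0.543 and 0.738 in WT and 0.945 in REF. The STAT5b-/- arrays agree within 1.06-fold of each other and lie inside the range of the WT arrays, which is 3.16-fold wide. Its log2 fold change was 0.31 ± 0.40 (adjusted p = 0.633, 95% interval -0.63 to 1.25). Without WT replicate 1 it was 0.79 (adjusted p = 0.0325), which passes, and without WT replicate 2 it was -0.04.

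Ier2 and Ier3 encode small proteins named for their rapid induction. Ier2 is a nuclear factor, and Ier3 guards cells against apoptosis and is itself an NF-kB target. Ier2 had ratios of 1.67, 2.10 and 1.59 in STAT5b-/- colon, against 1.13, 0.673 and 1.19 in WT and 1.58 in REF. The groups do not overlap, but REF was within 1.01-fold of the lowest STAT5b-/- array. The log2 fold change of 0.87 ± 0.25 passed narrowly (adjusted p = 0.0472), and with REF counted as a wild type sample it was 0.70 ± 0.27 and did not (adjusted p = 0.107). It also missed with STAT5b-/- replicate 1, 2 or 3 or WT replicate 1 or 3 left out (adjusted p of 0.0549 to 0.153). Ier3 had ratios of 1.06, 1.16 and 1.27 in STAT5b-/-, against 1.09, 0.632 and 1.28 in WT and 0.880 in REF. Only WT replicate 2 and REF lay below the STAT5b-/- arrays, and the log2 fold change of 0.27 ± 0.26 did not pass (adjusted p = 0.524, 95% interval -0.35 to 0.90). Without WT replicate 2 it was -0.03.

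Dusp1 and Zfp36 encode the brakes. Dusp1, the phosphatase MKP-1, switches off p38 and JNK in the nucleus. It had ratios of 1.41, 1.33 and 1.96 in STAT5b-/- colon, against 0.993, 1.08 and 0.930 in WT and 0.985 in REF. The STAT5b-/- arrays were farther apart (SD of 0.301 on the log2 scale) than the WT arrays (0.107), whereas in the other 9 genes the SD was the larger in WT. Its log2 fold change was 0.63 ± 0.18 (adjusted p = 0.0461). It missed with STAT5b-/- replicate 1, 2 or 3 or WT replicate 1 or 3 left out (adjusted p of 0.0689 to 0.127), and was 0.46 without STAT5b-/- replicate 3. Zfp36 encodes tristetraprolin (TTP), which binds AU-rich elements in the mRNAs of TNF and other cytokines and brings them to decay. Its ratios were 2.27, 2.15 and 2.84 in STAT5b-/-, against 1.21, 0.666 and 1.13 in WT and 1.04 in REF. All STAT5b-/- arrays were at least 1.78-fold above the wild type samples. The log2 fold change was 1.31 ± 0.25 (adjusted p = 0.0121), and the call ended without STAT5b-/- replicate 3 (1.19, adjusted p = 0.0507).

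**Figure D2:**
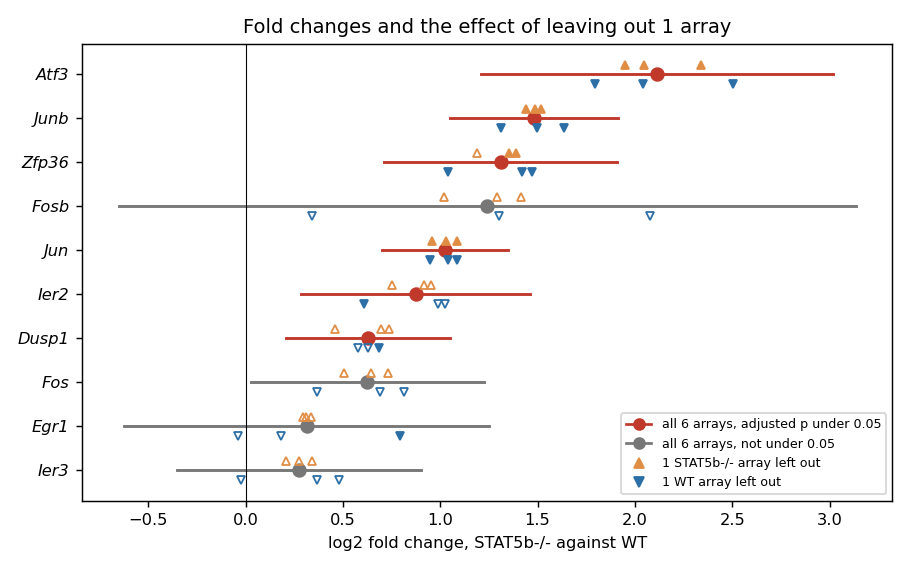
Log2 fold change of STAT5b-/- against WT for each gene (large points) with its 95% interval from the limma fit, and the values with 1 STAT5b-/- array (upward triangles) or 1 WT array (downward triangles) left out, filled where the adjusted p was under 0.05. Atf3, Junb and Jun stay filled throughout, and Egr1 and Ier3 cross 0 with 1 WT array left out.

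Across the list, all STAT5b-/- arrays exceeded all WT arrays in 7 genes (25% of all genes do so) and exceeded REF as well in 6 (22.6% of all genes). The same arrays were often the low or the high ones of their group. WT replicate 2 was the lowest of all 7 samples in 8 of the 10 genes, with a median log2 difference of -0.80 from the mean of the other WT arrays, while over all genes that median was 0.08. WT replicate 1 was the highest WT array in 6 genes, with a median over all 10 genes of 0.47 above the other WT arrays. STAT5b-/- replicate 3 was the highest of its group in 8 genes and replicate 2 the lowest in 8. The genes are read from the same RNA of each sample, so these counts describe 6 arrays and not 10 separate observations. The median log2 fold change was 0.65 without WT replicate 2, and 0.97 without STAT5b-/- replicate 1, which leaves females only.

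The genes were more variable between WT arrays than most genes. The SD of the log2 ratio over the STAT5b-/- arrays had a median of 0.213 over the 10 genes and 0.155 over all genes, and over the WT arrays of 0.465 and 0.234. It was larger in WT than in STAT5b-/- in 9 of the 10 genes, and in 67.9% of all genes. Fosb (SD 1.74 in WT) lay at percentile 99.8 of all genes for WT spread, Egr1 at 96.7 and Atf3 at 94.1, while Jun and Dusp1 lay at 28.7 and 19.3. Division by the mean of the WT arrays does not alter an SD on the log2 scale within a gene.

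**Figure D3:**
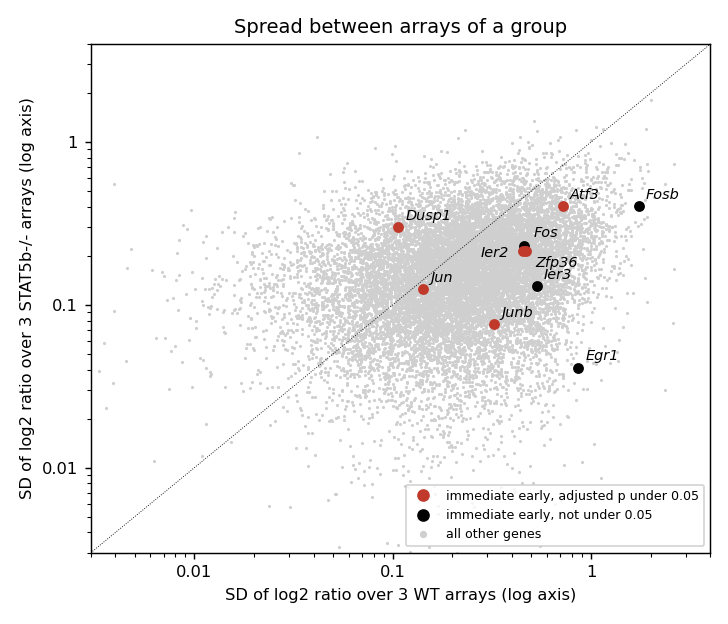
SD of the log2 ratio over the 3 STAT5b-/- arrays (vertical, log axis) against that over the 3 WT arrays (horizontal, log axis), with immediate early genes labelled and all other genes in grey. All labelled genes except Dusp1 lie below the dotted line of equal SDs, Fosb and Egr1 farthest to the right, and 12 genes with an SD under 0.003 fall outside the axes.

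REF, the further wild type sample, shows how far a sample of that genotype lies from the WT arrays. A test of 1 sample against 3 has little power, so an absence of calls cannot show that REF matches WT. Against WT, 0 of the 10 genes passed (limma with 1 sample against 3), and 0 had an unadjusted p under 0.05. Over all genes 0% passed, and 208 had an unadjusted p under 0.05. REF lay above all WT arrays in Junb, Ier2 and Fos, by log2 differences from the WT mean of 0.68, 0.71 and 0.66, and within their range in the other 7 genes. The corresponding values for STAT5b-/- were 1.48, 0.87 and 0.63, and both sets of differences share the WT arrays. For Jun, Dusp1 and Zfp36 the REF differences were -0.15, -0.02 and 0.11.

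Other early response genes did not move one way. Of 44 further genes of the class, 13 were higher in STAT5b-/- colon and 5 lower (over all genes 13.3% and 8.42%), and the list median of 0.27 compares with 0.007 over all genes. Among those that rose were Maff (1.80 ± 0.20 on the log2 scale), a small Maf protein, and Gadd45a (1.46 ± 0.14), a growth arrest gene. Gadd45g fell by 2.52 ± 0.24, the orphan nuclear receptor Nr4a2 by 2.02 ± 0.18 and Ccn2 (connective tissue growth factor), a target of YAP and of serum response factor, by 1.72 ± 0.18. Adjusted p was at most 0.00159 for these genes.

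The relatives of the 10 genes, named for their families, went different ways. Of the 7 Fos and Jun genes, 4 rose and 0 fell, where 13.3% and 8.42% of all genes did. With Jun and Junb, already given above, these were Fosl1 (1.04 ± 0.19, adjusted p = 0.00982) and Fosl2 (0.70 ± 0.14, adjusted p = 0.0145). Their proteins are later-appearing members of the Fos side of AP-1. Fosl1 had ratios of 2.50, 1.65 and 2.06 in STAT5b-/-, against 0.880, 1.12 and 0.995 in WT and 0.808 in REF, with no overlap. Jund, the constitutive Jun, did not pass, at 0.17 ± 0.12 (adjusted p = 0.401). None of the 4 Egr genes passed by limma, and Egr2 had ratios of 0.452, 0.398 and 0.281 in STAT5b-/-, against 1.75, 0.689 and 0.561 in WT and 0.604 in REF (adjusted p = 0.0848). Nr4a1 had 0.162, 0.410 and 0.329 in STAT5b-/-, against 2.02, 0.573 and 0.404 in WT and 0.624 in REF (adjusted p = 0.149). WT replicate 1 was the highest sample in Egr2 and Nr4a1, as it was in Egr1.

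**Figure D4:**
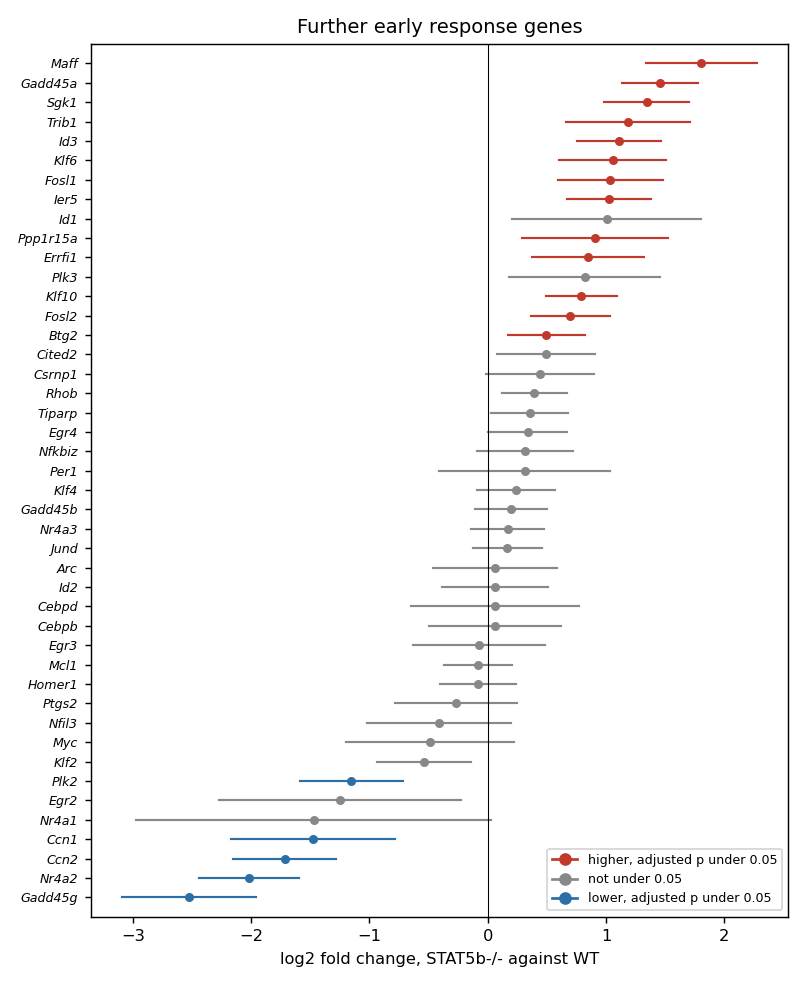
Log2 fold change of STAT5b-/- against WT with its 95% interval for 44 further early response genes, ordered by size, with red for the 13 called higher, blue for the 5 called lower and grey for the rest. The values run from -2.52 for Gadd45g to 1.80 for Maff.

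In the kinase cascade that leads to these genes, 7 of 33 measured genes were higher and 1 lower (background 13.3% and 8.42%; list median 0.09). Mapk3, the kinase ERK1, rose by 1.09 ± 0.16 on the log2 scale (adjusted p = 0.00454). Mapk3 had ratios of 1.95, 2.30 and 2.08 in STAT5b-/-, against 1.08, 0.821 and 1.10 in WT and 1.14 in REF. The receptor gene Erbb2 rose by 1.27 ± 0.19 and the ligand gene Egf fell by 1.56 ± 0.20. Srf, which binds the CArG box, had ratios of 1.58, 1.62 and 1.54 in STAT5b-/-, against 1.28, 0.540 and 1.18 in WT and 1.27 in REF, and did not pass (0.76 ± 0.32, adjusted p = 0.146). WT replicate 2 was the lowest sample in Srf too. These are mRNA values and give no kinase activity.

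Among the other dual specificity phosphatases, 4 of 10 were higher and 2 lower (over all genes 13.3% and 8.42%; list median 0.08). Dusp10, which acts on p38 and JNK, rose by 2.11 ± 0.23 and Dusp9 by 2.02 ± 0.15 on the log2 scale. Dusp16 rose by 1.03 ± 0.15, while Dusp22 fell by 1.29 ± 0.17 (adjusted p at most 0.00422 for these 4 genes). Dusp6, an ERK phosphatase induced by ERK itself, had ratios of 0.581, 0.458 and 0.649 in STAT5b-/-, against 1.16, 0.966 and 0.872 in WT and 0.626 in REF, so that a wild type sample lay as low (adjusted p = 0.0190).

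Of 21 measured mRNA decay factors and mRNAs known to be bound by TTP, 0 were higher and 3 lower (limma, list median -0.16), where 13.3% and 8.42% of all genes were. Il10 fell by 1.98 ± 0.24, Cxcl1 by 1.27 ± 0.28 and Il1b by 0.64 ± 0.15 on the log2 scale (adjusted p = 0.00229, 0.0208 and 0.0243). The Il10 ratio in REF was 0.293, against 0.726 to 1.37 in WT. Array medians of this list were -0.29 to -0.13 in STAT5b-/-, -0.06 to 0.01 in WT and -0.24 in REF (log2). REF, a wild type sample, thus lay within the range of the STAT5b-/- arrays. The difference for Tnf, -0.62 ± 0.23 on the log2 scale, did not pass (adjusted p = 0.0974). Of 11 markers of leukocytes, a source of these cytokines, 2 were higher and 4 lower in the same arrays, and their part in these values was not tested.

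Other bZIP factors that can pair with AP-1 proteins were higher in 3 of 19 and lower in 2, close to the shares of 13.3% and 8.42% over all genes (list median 0.12). Beside Maff, which is on both lists, Batf2 rose by 0.87 ± 0.13 and Nfe2l2, the regulator of antioxidant genes, by 0.77 ± 0.14, while Jdp2, a repressor of AP-1, fell by 0.71 ± 0.17 (adjusted p at most 0.0248).

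Because dissection can induce this class of genes, heat shock genes, which also respond to handling, were read beside it. Of 14 measured, 1 was higher and 0 lower (over all genes 13.3% and 8.42%), and the list median was -0.01. The member that rose was Dnajb4 (0.92 ± 0.19, adjusted p = 0.0152). Hspa1a, the inducible HSP70, had ratios of 0.865, 1.13 and 1.10 in STAT5b-/-, against 1.43, 0.806 and 0.764 in WT and 0.761 in REF (adjusted p = 0.835). Array medians of the heat shock list were -0.07 to 0.13 in STAT5b-/-, -0.07 to 0.04 in WT and -0.13 in REF (log2). Those of the 10 immediate early genes were 0.64, 0.66 and 1.03 in STAT5b-/-, 0.28, -0.58 and 0.05 in WT, and 0.11 in REF. Ischaemia time and dissection order are not in the labels, and their part in the result was not tested.

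Markers of cell types moved in the same arrays. Of 9 colon epithelial markers 5 were higher and 1 lower (over all genes 13.3% and 8.42%, here and for the lists that follow), with array medians of 0.44 to 0.61 in STAT5b-/-, -0.09 to 0.04 in WT and 0.11 in REF on the log2 scale. Of 11 leukocyte markers 2 were higher and 4 lower (-0.99 to -0.83 in STAT5b-/-, -0.20 to 0.30 in WT, -0.44 in REF). Of 10 endothelial and fibroblast markers 0 were higher and 6 lower by limma. Their array medians were -0.84 to -0.46 in STAT5b-/-, -0.17 to 0.09 in WT and -0.19 in REF. By limma, 0 of 9 smooth muscle, 0 of 8 neuronal and glial and 0 of 10 fat, pancreas and lymphoid markers passed. Array medians of the fat, pancreas and lymphoid list were still -0.72 to -0.40 in STAT5b-/-, -0.18 to 0.22 in WT and -0.40 in REF. In WT replicate 2, the array with the lowest immediate early genes, the leukocyte median was the highest of all samples at 0.30. The part of cell makeup in the changes of the 10 genes was not tested.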

How the data were processed

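The deposited table holds, for 26180 probe sets and 8 array columns, the ratio of each value to the mean of the 3 WT arrays. RMA is named, without a version, in the submitters' processing notes; no source used here names the array type. The authors' division is seen in the values, as the WT mean is 1 in every probe set to within 1.87e-07. The lowest deposited value is 0.01, which none of the 10 genes reached. REF columns were averaged to 1 sample. Probe sets were named through RefSeq accessions (GRCm38.p6 gene table): 15228 matched 1 symbol and 10952 none.

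Ratios were taken to log2 with no pseudocount, the probe sets of a gene averaged, and groups compared with limma 3.58.1 in R 4.3.3 (lmFit and eBayes over the 6 STAT5b-/- and WT arrays) with Benjamini-Hochberg adjustment over all 14351 genes. REF was compared as 1 sample against 3. Fold changes come from means of log2 ratios, and the fit was tested on simulated data. The number of arrays limits the precision. The genes and the 14 other lists were chosen with earlier results of these data known. From each list up to 4 called genes with the smallest p are named, and relatives of the 10 genes, Hspa1a, Srf, Dusp6 and Tnf were added after their values were seen. Results for 2 such genes are left out here. Alternatives were each array left out, a replicate block, quantile normalization, median centring, a pseudocount of 0.1, no genes at the lowest value, another probe set rule, all groups in 1 fit, REF as wild type and robust moderation. Background correction, dim probe sets and slide could not be varied on ratios.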

Additional observations from a re-analysis of the deposited data

How the results depend on the processing

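With 1 array left out, 3 to 6 of the 10 genes were called (4 without STAT5b-/- replicate 1, 4 without replicate 2 and 3 without replicate 3), the median log2 fold change was 0.65 to 1.05, and 31 to 51 genes were called over the further early response, kinase, phosphatase, mRNA decay, bZIP, heat shock, hypoxia and AP-1 target lists together, against 47 with all arrays. Over all genes, 1053 to 2192 were then higher and 663 to 1359 lower, against 1910 and 1209. Quantile normalization left 0 of the 10 genes (limma), 6 genes of those other lists together, and 165 higher and 227 lower genes (42.1% of calls higher, against 61.2%), with a median of 0.63 for the 10 genes. It forces 1 distribution on arrays whose SD of log2 ratios was 0.646 to 0.737 in STAT5b-/- and 0.289 to 0.363 in WT, which narrows the STAT5b-/- arrays and widens the WT arrays by construction. Under it Jun had 0.71 (adjusted p = 0.101), Junb 0.96 (0.218), Atf3 1.19 (0.606), Zfp36 0.83 (0.415) and Egr1 -0.0501 (0.996).

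Sign changes were otherwise seen in Egr1 (-0.0374 to 0.79) and Ier3 (-0.0257 to 0.48) with 1 array left out. Deviations of same-numbered arrays showed no strong shared part, as they correlated at 0.0355, -0.0984 and -0.186 across genes. The labels state no pairing, and so few arrays cannot settle whether there was one. With the replicate block, 4 of the 10 genes and 39 genes of the other lists were called, and 1238 genes were higher and 801 lower. Ier2 missed under median centring (adjusted p = 0.0545) and robust moderation (0.0504). Of 150 values for single genes under 15 alternatives, 124 kept direction and side of the threshold, 22 lost it, 1 gained it and 3 changed sign. All losses fall on the 6 genes called with all arrays, since only a called gene can lose its call. Adding REF to 1 fit leaves the STAT5b-/- values as they are by construction, since 1 sample adds no residual. The probe set rule and the removal of genes at the lowest value also cannot move these fold changes. Each of the 10 genes has 1 probe set, and none reached that value.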

Other observations

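Hypoxia genes were higher in 3 of 11 and lower in 2 (over all genes 13.3% and 8.42%; list median 0.44). Car9, a carbonic anhydrase, rose by 1.02 ± 0.15 and the glucose transporter gene Slc2a1 by 0.49 ± 0.12 on the log2 scale, while Egln3, an oxygen sensor, fell by 0.90 ± 0.16 and Ero1a, an oxidase of the endoplasmic reticulum, by 0.61 ± 0.14 (limma adjusted p at most 0.0259). Of 12 AP-1 target genes of matrix and protease control, 1 was higher and 1 lower, no more than the shares over all genes. Mmp13, a collagenase, rose by 1.04 ± 0.25 (adjusted p = 0.0278), with ratios of 1.80, 2.21 and 1.95 in STAT5b-/-, against 0.786, 0.787 and 1.43 in WT. Mmp10, a stromelysin, fell by 2.78 ± 0.16 (adjusted p = 0.000181).

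Among the genes nearest in pattern to the mean of the 10, by root mean square difference of log2 ratios over the 7 samples, were Srek1ip1 (0.113), Tmem203 (0.129), Acad8 (0.140) and Atg2a (0.143). Srek1ip1 had ratios of 1.74, 1.75 and 1.80 in STAT5b-/-, against 1.29, 0.715 and 0.991 in WT and 1.23 in REF.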
